A study of Homo sapiens with 6 samples.

Results

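The unfolded protein response sensors and transcription factors examined here were 8 genes of the 25445 rows in the count table, found by their symbols: ERN1, XBP1, ATF6, ATF6B, CREB3, CREB3L1, CREB3L2 and CREB3L4. RNA-seq was performed in MHCC-97H cells, an established human liver cancer line, kept for 16 h in 10 μM 6j, a compound derived from the alkaloid sophoridine, or in solvent only. Each group, 6j treated and non-treated, had 3 libraries, and the labels name no genetic change in either. The labels do not say that the replicates came from separate cultures, so the p-values measure the spread between these libraries, which may be technical.

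The unfolded protein response is the way a cell adjusts to misfolded protein in the endoplasmic reticulum (ER). IRE1, the product of ERN1, spans the ER membrane and, once active, cuts an intron out of the XBP1 mRNA in the cytosol, so that the ligated mRNA encodes the active factor XBP1s. ATF6, ATF6B and the CREB3 family are bZIP transcription factors held in the ER membrane, which move to the Golgi and are cut there by the proteases MBTPS1 and MBTPS2 to free the DNA-binding part. A further arm starts from the kinase PERK, the product of EIF2AK3. Cleavage, phosphorylation and splicing are how these proteins are switched on, and gene-level counts hold only the amount of mRNA.

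The step that the counts cannot show is the splicing of XBP1. The sequence below is the stretch of XBP1 mRNA that IRE1 cuts, read from GENCODE version 29, with the 26 bases that are removed in capitals. It lies in the coding sequence, in exon 4 of 5 of transcript XBP1-201, at chr22:28796127-28796152 of GRCh38 on the minus strand.
XBP1: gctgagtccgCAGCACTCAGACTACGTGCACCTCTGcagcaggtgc
Transcripts XBP1-202 and XBP1-207 of the same annotation held the joined flanks without the capitals and had a coding length of 1128 bases, against 783 bases in XBP1-201. Reads of both forms fall on a single row of the table, so the XBP1 values below are the sum of unspliced and spliced mRNA.

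Letters of known stress response elements were searched for in the promoters. Windows from RefSeq (GRCh38.p14) were matched for 8 of the 8 genes and searched over the 250 bases before each start site, on both strands. The letters searched were CCAAT and CCACG with 9 bases between them for the ER stress response element (ERSE), ATTGG and CCACG with 1 base between them for ERSE-II, TGACGTGG for the unfolded protein response element (UPRE) and TGACGTCA for the cAMP response element (CRE). The letters of UPRE read on the opposite strand share CCACG with both ERSE forms, and TGACG is common to UPRE and CRE. An ERSE was found in 1 of the 8 genes, XBP1, and in 26 of all 35116 windows (0.074%). A CRE was found in 1 of the 8, CREB3L2, and in 1.65% of all windows, while no ERSE-II (0.0513% of all windows) or UPRE (0.612%) was found in the 8 genes. A gene counted if any of its windows matched, while the shares of all windows are per window. XBP1 and CREB3L2 had 2 windows each, and each of the others had 1. Among 10 genes known as targets of ATF6, 4 held an ERSE and 3 an ERSE-II, and HYOU1 also held a UPRE. Of 10 targets of XBP1, 2 held an ERSE, among them PDIA6. A CRE was also found in PPP1R15A and in 1 of 6 related sensors and bZIP factors with a window. The lines below show the XBP1 and CREB3L2 matches and those of 5 ATF6 targets described later, each in the direction of its gene with the fixed letters of the match in capitals.
XBP1 (ERSE, chr22:28800591-28800633, minus strand): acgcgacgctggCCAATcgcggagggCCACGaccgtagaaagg
HSPA5 (ERSE, chr9:125241379-125241421, minus strand): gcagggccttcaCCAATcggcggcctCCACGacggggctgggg
CRELD2 (ERSE, chr22:49918542-49918584, plus strand): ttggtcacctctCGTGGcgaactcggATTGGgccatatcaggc
CALR (ERSE, chr19:12938372-12938414, plus strand): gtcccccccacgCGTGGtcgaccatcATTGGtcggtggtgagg
HERPUD1 (ERSE-II, chr16:56932013-56932047, plus strand): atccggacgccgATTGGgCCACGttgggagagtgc
SDF2L1 (ERSE-II, chr22:21642102-21642136, plus strand): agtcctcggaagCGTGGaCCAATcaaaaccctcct
CREB3L2 (CRE, chr7:138002246-138002277, minus strand): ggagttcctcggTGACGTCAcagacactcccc
In XBP1 the match ended 33 bases before the start site and in HSPA5 47 bases before it. A match of letters is a description and does not show binding.

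The deposited values are whole-number counts per gene, and the total ranged from 31533403 to 38018349 per library. Levels are given as CPM, the count scaled to a common library size of 1000000 after TMM normalization in edgeR. A gene passed the test at a Benjamini-Hochberg adjusted p under 0.05 in edgeR's quasi-likelihood fit of all 15957 rows tested, and a DEG also had to differ by more than 1.5-fold. The rows tested that passed were 1462 with all libraries, 202 without non-treated replicate 1 and 217 without 6j replicate 2. The mitochondrial share of the counts was 3.83% to 4.86% in non-treated and 2.65% to 3.46% in 6j treated cells. Of 11 hepatocyte lineage markers, only HNF4A, KRT8 and KRT18 averaged at least 1 CPM, TTR had no count, and ALB and AFP averaged below 1 CPM. The summed level of these markers was 905 to 1110 CPM in non-treated and 706 to 825 CPM in 6j treated cells. Nearly all of this sum was KRT8 and KRT18. KRT8 went from 605 ± 77.2 to 404 ± 47.0 CPM and KRT18 from 430 ± 36.3 to 344 ± 23.1 CPM (SD, n = 3 each, adjusted p = 0.0211 and 0.0661 in edgeR). The part of the mitochondrial or the marker shift in the results below was not tested. Of 11 markers of fibroblasts, endothelial cells and leukocytes, only COL3A1, CDH5 and CD68 averaged at least 1 CPM, and PDGFRA, PTPRC and CD3E had no count.

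Of the 8 genes, 7 had enough counts to be tested. In 6j treated cells, 4 of the 7 rose, namely ERN1, XBP1, ATF6 and CREB3, and none fell. Over all rows tested, 9.16% passed in either direction, 4.79% higher and 4.37% lower. ERN1 was the only DEG of the 7, against 3.60% of all rows. The 3 libraries of 6j treated cells lay apart from the 3 of non-treated cells for these 4 genes, and the groups did not overlap in 31.7% of all rows. ATF6B, CREB3L2 and CREB3L4 did not pass. In bulk RNA a change in the number of cells of some kind and a change of RNA per cell cannot be told apart. The median log2 fold change of the 7 was 0.32, and that of all rows tested was 0.0046. With non-treated replicate 1 or 6j replicate 2 left out, only 1 of the 7 passed, which was ERN1.

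**Figure D1:**
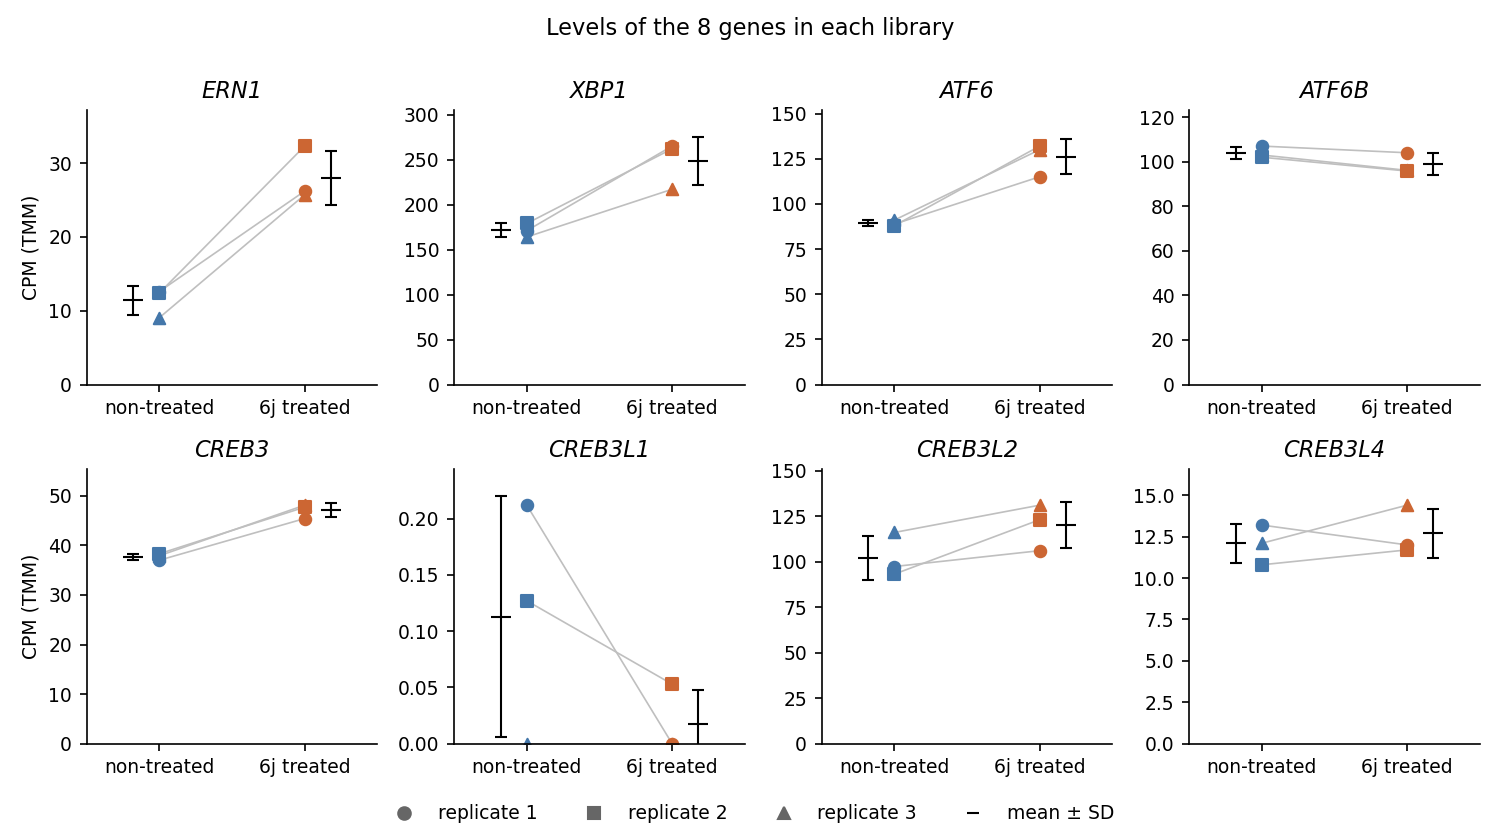
Level of each of the 8 genes in each library (y axis, CPM, from 0, with its own scale per gene) in non-treated (blue) and 6j treated cells (orange). Symbols mark the replicate number, grey lines join libraries of the same number and black bars are the mean ± SD (n = 3). The groups do not overlap for ERN1, XBP1, ATF6 and CREB3, and CREB3L1 has at most 8 counts in any library.

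ERN1, the gene of the sensor IRE1 (chromosome 17, 64039142 to 64130819), changed most of the 7. Its level was 12.6, 12.4 and 9.05 CPM in non-treated replicates 1, 2 and 3. With 6j, the same replicates had 26.2, 32.3 and 25.7 CPM. Every 6j treated library was thus above every non-treated library, and the lowest of all was non-treated replicate 3. The mean rose from 11.4 ± 2.0 to 28 ± 3.68 CPM (SD, n = 3 each) or 2.47-fold. The log2 fold change was 1.30 (standard error 0.16, 95% interval 0.95 to 1.66, adjusted p = 0.00385 in edgeR). It ranked 62 by p-value among the 15957 rows. The rise was seen within each replicate number, with log2 changes of 1.05, 1.38 and 1.5 in replicates 1, 2 and 3. ERN1 passed in each of the 6 fits that left out 1 library. It did not pass glmTreat, the formal test in edgeR of a change above 1.5-fold, which called 0 of the 7 genes, with 1 at an unadjusted p under 0.05 in that test.

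The 3 genes whose pattern over the 6 libraries was closest to that of ERN1 were CEBPG, PCK2 and SCD. Likeness was measured as the root mean square distance between log2 levels centred on their means, among 9732 genes averaging at least 10 CPM. The distances were 0.083 for CEBPG, a bZIP factor gene, 0.10 for PCK2, a mitochondrial enzyme gene of phosphoenolpyruvate synthesis, and 0.11 for SCD, a fatty acid desaturase gene. CEBPG went from 48.4 ± 5.25 to 124 ± 15.5 CPM (SD, n = 3 each) while ERN1 went through its 2.47-fold rise. In all of them, as in ERN1, non-treated replicate 3 was the lowest library. These genes were picked from the same libraries, so the likeness is a description.

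XBP1, the transcript that IRE1 splices (chromosome 22, 28794555 to 28800597), was at 171, 179 and 164 CPM in non-treated replicates 1, 2 and 3. In the 6j treated replicates it was at 265, 262 and 217 CPM. The groups did not overlap, and replicate 3 was the lowest library in each. The mean rose from 172 ± 7.68 to 248 ± 26.7 CPM (SD, n = 3 each) or 1.45-fold. The log2 fold change was 0.53 (standard error 0.095, 95% interval 0.32 to 0.75, adjusted p = 0.0131 in edgeR), so the interval reached past the 1.5-fold threshold while the estimate stayed under it. XBP1 did not pass without non-treated replicate 1 (adjusted p = 0.0758 in edgeR) or without 6j replicate 2 (adjusted p = 0.0744 in edgeR), and it became a DEG without 6j replicate 3, where the log2 fold change was 0.62.

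The XBP1 to ERN1 ratio was lower in every 6j treated library than in any non-treated library. On the log2 CPM scale, XBP1 minus ERN1 was 3.75, 3.85 and 4.17 in non-treated replicates 1, 2 and 3. With 6j it was 3.34, 3.02 and 3.08. The difference of the means was −0.78, which is 0.582 of the ratio in non-treated cells (two-sided exact permutation test, p = 0.1, adjusted p = 0.15 over 3 pairs). With 3 libraries against 3, no p below 0.1 is possible, so this design could not pass the threshold.

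ATF6 and ATF6B encode sister factors, of which ATF6 is the stronger activator of ER chaperone genes. ATF6 (chromosome 1, 161766294 to 161964070) was at 88.8, 87.9 and 91.0 CPM in non-treated replicates 1, 2 and 3. With 6j it was at 115, 132 and 130 CPM. The non-treated libraries lay close together and every 6j treated library was above them. The mean rose from 89.2 ± 1.61 to 126 ± 9.66 CPM (SD, n = 3 each) or 1.41-fold, with a log2 fold change of 0.49 (standard error 0.083, 95% interval 0.31 to 0.68, adjusted p = 0.0113 in edgeR). ATF6 did not pass without non-treated replicate 1 (adjusted p = 0.0672 in edgeR) or without 6j replicate 2 (adjusted p = 0.0631 in edgeR).

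ATF6B (chromosome 6, 32115264 to 32128253) was at 107, 102 and 103 CPM in non-treated replicates 1, 2 and 3. In the 6j treated replicates it was at 104, 95.8 and 96.1 CPM, so the groups overlapped. Its log2 fold change was −0.077, with a 95% interval of −0.25 to 0.094 (adjusted p = 0.573 in edgeR). The interval does not contain a rise of the size seen for ATF6. ATF6B shares 71 exon bases with TNXB on the same strand, whose mean was 9.17 ± 0.89 CPM in non-treated and 12.8 ± 3.19 CPM in 6j treated cells (SD, n = 3 each).

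ATF6 minus ATF6B on the log2 CPM scale was −0.27, −0.21 and −0.18 in non-treated replicates 1, 2 and 3, and 0.13, 0.46 and 0.44 in the 6j treated replicates. The difference was thus negative in every non-treated library and positive in every 6j treated library. The difference of the means was 0.57, a 1.48-fold change of the ratio (two-sided exact permutation test, p = 0.1, the smallest possible, and adjusted p = 0.15 over 3 pairs). Between XBP1 and ATF6 the change was 0.038 (two-sided exact permutation test, p = 0.9, adjusted p = 0.9), with values within replicates 1, 2 and 3 of 0.26, −0.041 and −0.11. It took the other sign without non-treated replicate 3 (−0.0081) and without 6j replicate 1 (−0.077).

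**Figure D2:**
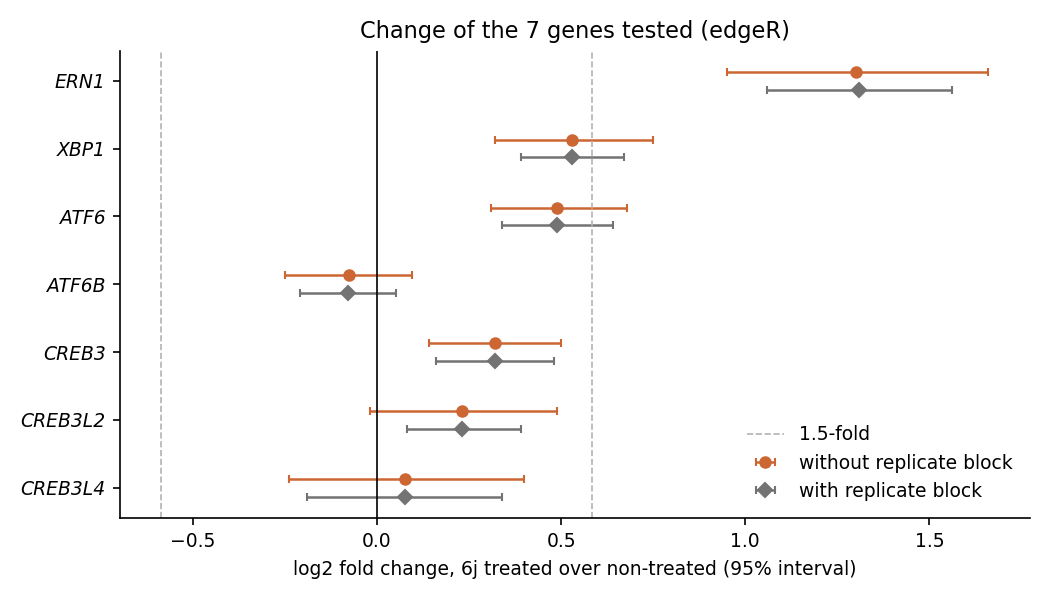
Log2 fold change in 6j treated over non-treated cells (x axis) of the 7 genes tested, with 95% intervals, from edgeR without (orange circles) and with (grey diamonds) the replicate number as a block. Dashed lines mark a 1.5-fold change. ERN1 at 1.30 is the only estimate past it, and the CREB3L2 interval excludes 0 only with the block.

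The CREB3 family, 4 of the 8 genes, comprises membrane-bound factors that raise secretory pathway genes and are cut in the Golgi as ATF6 is. CREB3, also called Luman (chromosome 9, 35732335 to 35737004), was at 37.0, 38.3 and 37.9 CPM in non-treated replicates 1, 2 and 3. In the 6j treated replicates it was at 45.4, 47.7 and 48.1 CPM, above all non-treated libraries. The mean rose from 37.7 ± 0.614 to 47.1 ± 1.45 CPM (SD, n = 3 each) or 1.25-fold. The log2 fold change was 0.32 (standard error 0.081, 95% interval 0.14 to 0.50, adjusted p = 0.0416 in edgeR), and within replicates 1, 2 and 3 it was 0.29, 0.32 and 0.34.

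The call of CREB3 was near the threshold. It was kept without 6j replicate 1 (adjusted p = 0.0452 in edgeR) and lost without any other single library. The adjusted p in edgeR was then 0.159, 0.105 and 0.0956 without non-treated replicates 1, 2 and 3, and 0.139 and 0.082 without 6j replicates 2 and 3. CREB3 exons overlap those of GBA2 over 139 bases and of TLN1 over 61 bases on the opposite strand, and the library protocol names no strand marking, so reads there cannot be told apart. GBA2 was at 56.9 ± 6.35 and 62.4 ± 7.42 CPM and TLN1 at 322 ± 9.92 and 318 ± 12.1 CPM (SD, n = 3 each) in non-treated and 6j treated cells, and neither passed (adjusted p = 0.519 and 0.92 in edgeR).

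CREB3L2, which supports secretion of matrix proteins in cartilage (chromosome 7, 137874979 to 138002067), was at 97.3, 93.1 and 116 CPM in non-treated replicates 1, 2 and 3. The 6j treated replicates had 106, 123 and 131 CPM. The groups overlapped, because non-treated replicate 3 was above 6j replicate 1, but each 6j treated library was above the non-treated library of its own number. The log2 fold change was 0.23 (95% interval −0.018 to 0.49, adjusted p = 0.222 in edgeR). Fitted with a block for the replicate number, it was 0.23 (95% interval 0.081 to 0.39, adjusted p = 0.0282 in edgeR), so 5 of the 7 genes passed with the block, where 26.9% of all rows did.

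CREB3L4 (chromosome 1, 153967534 to 153974363), known for its expression in prostate, was at 13.2, 10.8 and 12.1 CPM in the non-treated replicates and at 12, 11.7 and 14.4 CPM with 6j in the same order. The groups were mixed. Its log2 fold change was 0.076 (95% interval −0.24 to 0.40, adjusted p = 0.785 in edgeR), and it was −0.023 without 6j replicate 3. Its exons overlap those of SLC39A1 over 280 bases on the opposite strand, and SLC39A1 rose from 207 ± 12.8 to 298 ± 24.3 CPM (SD, n = 3 each, adjusted p = 0.0119 in edgeR). CREB3L4 exons also overlap those of JTB over 95 bases on the opposite strand. JTB was at 155 ± 12.7 CPM in non-treated and 148 ± 3.96 CPM in 6j treated cells (SD, n = 3 each, adjusted p = 0.668 in edgeR).

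CREB3L1, also called OASIS (chromosome 11, 46277661 to 46321422), had 8, 4 and 0 counts in non-treated replicates 1, 2 and 3. With 6j it had 0, 2 and 0 counts. It was left out by the filter on low counts, so it is not among the 7 genes tested. Fitted without the filter, it differed by −2.45 on the log2 scale, with a standard error of 2.02 (adjusted p = 0.547 in edgeR), and DESeq2 gave −2.67 (standard error 2.41) with no adjusted p. Each of the 3 libraries without a count could still hold up to 3, which is 0.0781 to 0.0873 CPM. A difference between the groups was not detectable at this depth. Relatives outside the 8 genes were as low, with 0 to 5 counts per library for CREB3L3, a liver factor, and 0 to 10 for ERN2, the gut form of IRE1.

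Levels of different genes were set side by side per exon length, as RPKM, with the annotated exons of each gene merged. In non-treated cells XBP1 was the highest at 56.6 ± 2.54 RPKM, followed by ATF6B at 28.7 ± 0.744 and CREB3 at 19.8 ± 0.323 RPKM (SD, n = 3 each). CREB3L2 at 11.6 ± 1.40 and ATF6 at 11.3 ± 0.204 RPKM came next, and their libraries overlapped. CREB3L4 followed at 4.15 ± 0.404 RPKM, then ERN1 at 1.04 ± 0.184 RPKM, with CREB3L1 at the floor. All other neighbours in this order were further apart than their libraries spread. In 6j treated cells the order differed only in ATF6, at 15.9 ± 1.22 RPKM, standing above CREB3L2, at 13.7 ± 1.43 RPKM, and again these libraries overlapped. XBP1 reached 81.9 ± 8.81 RPKM and ERN1 reached 2.58 ± 0.338 RPKM, so the gene with the largest fold change stayed the lowest of the 7 tested. ATF6B at 27.2 ± 1.35 and CREB3 at 24.7 ± 0.764 RPKM came closer together. The merged exons count every annotated transcript, and which of them these cells make was not measured.

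**Figure D3:**
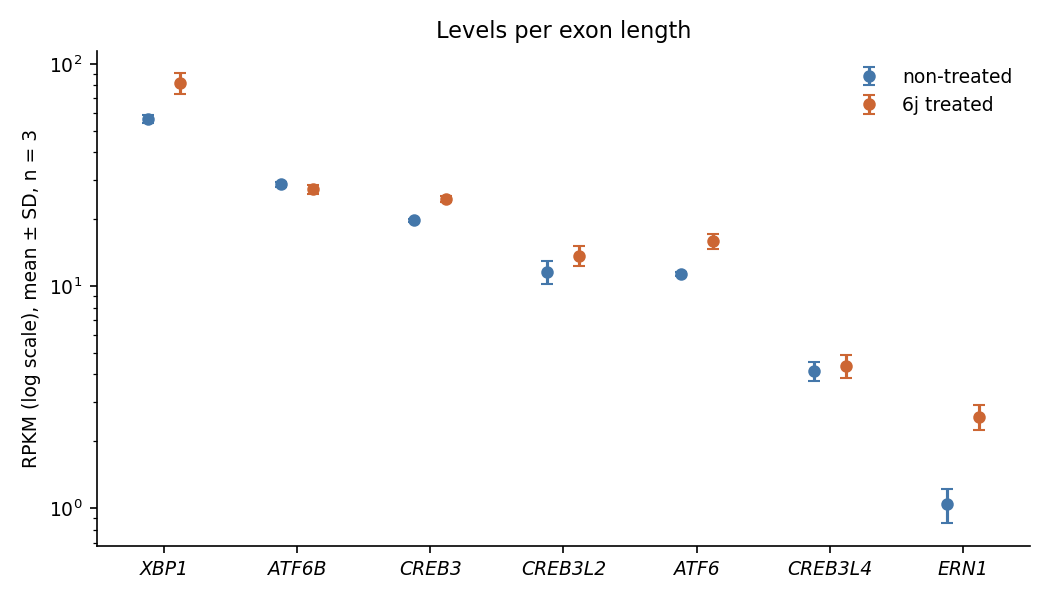
Level per exon length (y axis, RPKM, log scale) of the 7 genes tested, ordered by their level in non-treated cells, as mean ± SD of 3 libraries per group. XBP1 is the highest and ERN1 the lowest in both groups, and ERN1, XBP1, ATF6 and CREB3 are higher in 6j treated cells.

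The mRNAs of proteins that act beside or below the products of these 8 genes were followed through 8 gene lists written from general knowledge. Each gene was put on 1 list only, and whether it also answers to another arm was not tested. On the list of 9 IRE1 partners, which holds the ligase complex that joins spliced XBP1 and the kinase pathway below IRE1, 1 passed. The share of all rows tested that passed was 9.16%. MAP3K5, the kinase ASK1 that IRE1 engages, fell from 15.9 ± 0.273 to 11.0 ± 0.49 CPM (SD, n = 3 each, adjusted p = 0.023 in edgeR). It did not pass without any 1 of the non-treated replicates or without 6j replicate 2, where the highest adjusted p was 0.103 in edgeR. TMBIM6, an inhibitor of IRE1, had a log2 fold change of 0.32 and RTCB, the ligase itself, one of −0.24, and neither passed (adjusted p = 0.0592 and 0.104 in edgeR). With the replicate number as a block both passed (adjusted p = 0.00149 and 0.0203 in edgeR). In that fit 4 of the 9 passed, and 26.9% of all rows did. Without 6j replicate 1 or 6j replicate 3, 2 of the 9 passed, and without any other library 0 did.

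The 7 mRNAs known to be cut by IRE1 in its decay activity gave no call. Of the 6 tested, 0 passed in edgeR, 3 had an unadjusted p under 0.05, and DESeq2 called 0. Of all rows, 9.16% passed in edgeR and 16.3% in DESeq2. BLOC1S1, the usual marker of this activity, had 22.6 ± 0.749 CPM in non-treated and 16.3 ± 4.16 CPM in 6j treated cells (SD, n = 3 each), and its log2 difference was −0.47 (adjusted p = 0.116 in edgeR). The readthrough gene BLOC1S1-RDH5 covers the same exons, so its reads may be split. SCARA3, a scavenger receptor gene, had a log2 change of −0.38 (adjusted p = 0.136) and PMP22, a myelin protein gene, one of 0.23 (adjusted p = 0.159 in edgeR). With the replicate block, 2 of the 6 passed, BLOC1S1 and SCARA3, at adjusted p of 0.0111 and 0.0037 in edgeR. The share of all rows passing with the block was 26.9%. Without 6j replicate 3, 1 passed in the fit without the block.

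Of 10 targets of XBP1, 4 rose, none fell and 6 did not pass, with a median log2 fold change of 0.24. Among all rows tested, 4.79% rose and 4.37% fell, and the median was 0.0046. DNAJB9, an ER cochaperone that binds IRE1, rose from 18.2 ± 3.47 to 33.8 ± 6.04 CPM (SD, n = 3 each, log2 fold change 0.89, adjusted p = 0.0194 in edgeR) and was the only DEG. DNAJC3, the PERK inhibitor p58IPK, rose by 0.43 and EDEM1, which sends misfolded glycoproteins to degradation, by 0.49 on the log2 scale (adjusted p = 0.0374 and 0.0438 in edgeR). SYVN1, the ubiquitin ligase HRD1, named here after its values were seen, rose by 0.35 (adjusted p = 0.0476 in edgeR). SYVN1 shares exon bases with FAU and, on the opposite strand, MRPL49, and DNAJB9 with PNPLA8 and THAP5 on the opposite strand. DNAJC3, EDEM1 and SYVN1 passed in 2, 1 and 1 of the 6 fits that left out 1 library. The count was 0 without either non-treated replicate 1 or 6j replicate 2, 1 without non-treated replicate 2 and 2 without 6j replicate 3. The translocation and folding genes SEC61B, SRPRB and PDIA6, also named after their values were seen, had log2 fold changes of −0.007, 0.015 and 0.0096.

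The targets of ATF6 were split in direction. Of 10, 3 rose, 3 fell and 4 did not pass, and the median log2 fold change was −0.16. Among all rows tested, 4.79% rose and 4.37% fell, and the median was 0.0046. HERPUD1, a membrane protein of ER-associated degradation, rose from 82.5 ± 6.56 to 200 ± 32.4 CPM (SD, n = 3 each), which is a log2 change of 1.28 (adjusted p = 0.00173 in edgeR). SEL1L, the adaptor of the HRD1 ligase, rose from 139 ± 16.8 to 216 ± 27.3 CPM (SD, n = 3 each), which is a log2 change of 0.64 (adjusted p = 0.0147 in edgeR). SDF2L1, a partner of the ER chaperone BiP, fell from 59.1 ± 2.58 to 38.7 ± 2.53 CPM (SD, n = 3 each), by 0.61 on the log2 scale (adjusted p = 0.00723 in edgeR). HERPUD1 and SDF2L1 passed in each fit that left out 1 library, and SEL1L did not pass with non-treated replicate 1 or 6j replicate 2 left out (highest adjusted p = 0.0793 in edgeR).

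The other calls of this list were named after their values were seen. HSPA5, the gene of BiP, rose by 0.40, while the folding factor genes CRELD2 and MANF fell by 0.54 and 0.35 on the log2 scale (adjusted p = 0.033, 0.0198 and 0.0374 in edgeR). CRELD2 passed in 3 of the 6 fits that left out 1 library, and HSPA5 and MANF in 1 each. The lectin chaperone gene CALR had a log2 change of −0.28 (adjusted p = 0.0728 in edgeR), and it passed with the replicate block (adjusted p = 0.00233 in edgeR). Of the 7 ATF6 targets with an ERSE or ERSE-II match, 2 rose (HSPA5 and HERPUD1), 2 fell (CRELD2 and SDF2L1) and 3 did not pass, so genes sharing the printed letters went both ways. With the block 3 of these 7 were higher, with HYOU1, an ER chaperone gene, added (adjusted p = 0.00269 in edgeR), 3 were lower, with CALR added, and 1 did not pass. Of all 10 targets 9 passed with the block, 4 higher and 5 lower, and DESeq2 passed 8. The share of all rows passing was 26.9% with the block and 16.3% with DESeq2. Passing genes numbered 2 of the 10 without either non-treated replicate 1 or 6j replicate 2, and 3 without non-treated replicate 3. Of all rows, 1.24%, 1.33% and 3.82% passed in these fits, in the same order.

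Among 9 genes for the Golgi proteases and the cofactors of these factors, 1 rose, against 4.79% of all rows tested. CREBRF, a regulator that promotes loss of the CREB3 protein, rose from 16.2 ± 1.39 to 34.1 ± 6.05 CPM (SD, n = 3 each), which is a log2 change of 1.07 (adjusted p = 0.00559 in edgeR), and passed in each fit that left out 1 library. The proteases MBTPS1 and MBTPS2, named after their values were seen, had log2 fold changes of −0.14 and 0.12 (adjusted p = 0.306 and 0.362 in edgeR). NFYA, a subunit of the factor that binds the CCAAT end of the ERSE, had −0.20 and GTF2I, a further ERSE cofactor, −0.16 (adjusted p = 0.205 and 0.28 in edgeR).

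Of 5 secretory targets of the CREB3 family, 4 were tested and 1 rose, against 4.79% of all rows tested. SEC24D, a coat protein of ER export vesicles, went from 49.5 ± 5.9 to 73.2 ± 7.92 CPM (SD, n = 3 each, log2 fold change 0.56, adjusted p = 0.0197 in edgeR). It did not pass with non-treated replicate 1 or 2 or 6j replicate 2 left out (highest adjusted p = 0.0996 in edgeR), so the list then had 0, and without 6j replicate 3 it had 2. SEC16A, which marks ER exit sites, had 0.33 (adjusted p = 0.0518) and passed with the replicate block (adjusted p = 0.00617 in edgeR). COL1A1, a collagen gene activated by CREB3L1 in bone, was at 244 ± 30.3 and 231 ± 36.7 CPM (SD, n = 3 each, adjusted p = 0.748 in edgeR).

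On the list named the PERK arm, 4 of 7 genes rose and none fell, with a median log2 fold change of 0.54. Of all rows tested, 4.79% rose and 4.37% fell, and their median was 0.0046. Whether PERK was active or caused these changes was not tested. DDIT3, ATF4 and PPP1R15A, the last a phosphatase subunit that reverses PERK signalling, had log2 fold changes of 2.27, 1.10 and 1.63 (adjusted p = 0.000575, 0.000839 and 0.00213 in edgeR). EIF2AK3, the sensor itself and named after its values were seen, went from 36.5 ± 4.68 to 52.9 ± 5.05 CPM (SD, n = 3 each). The log2 fold change of EIF2AK3 was 0.54 (adjusted p = 0.0247 in edgeR), and it did not pass with non-treated replicate 1 or 3 or 6j replicate 2 left out (highest adjusted p = 0.114 in edgeR). The log2 fold changes of the sensor genes were thus 1.30 for ERN1, 0.54 for EIF2AK3 and 0.49 for ATF6. Whether EIF2AK3 differed from either was not tested.

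Of 8 related sensors and bZIP factors, 6 were tested and 1 rose, against 4.79% of all rows tested. CREB5, a bZIP factor gene of the ATF2 group, went from 1.76 ± 0.276 to 4.27 ± 0.368 CPM (SD, n = 3 each, log2 fold change 1.28, adjusted p = 0.0143 in edgeR), and it did not pass with non-treated replicate 1 or 3 or 6j replicate 2 left out (highest adjusted p = 0.0751 in edgeR). ATF2 and CREB1, widely expressed bZIP factors, had log2 fold changes of 0.34 and 0.24 (adjusted p = 0.0855 and 0.144 in edgeR) and passed with the replicate block (adjusted p = 0.00461 and 0.0318 in edgeR).

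Other genes named from the lists also share exon bases with neighbours, whose reads may be counted with theirs. DDIT3 does so with AC022506.1 on its own strand and with MARS and MBD6 on the opposite strand. SRPRB and MBTPS2 do so on their own strand with TF and YY2. On the opposite strand the neighbours are RAB6B for SRPRB, ATP6V1C2 for PDIA6, ALG12 for CRELD2, OARD1 for NFYA, ITGA7 for BLOC1S1 and PLK1 for ERN2.

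**Figure D4:**
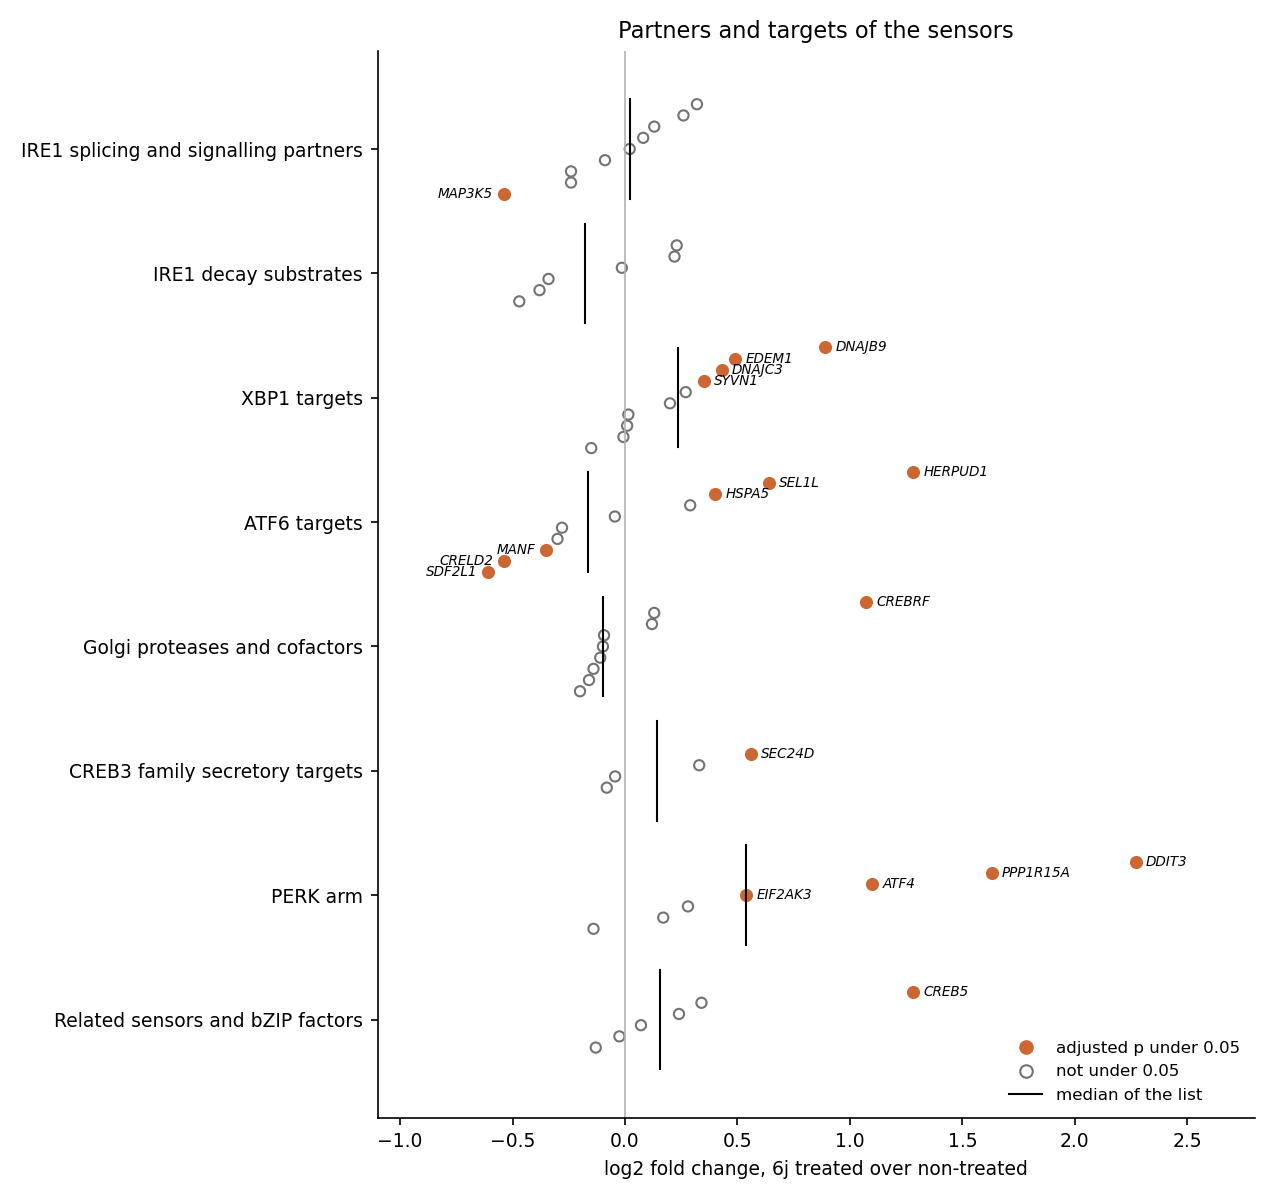
Log2 fold change in 6j treated over non-treated cells (x axis) of each tested gene on the 8 lists (rows), with filled orange points and names for genes that passed in edgeR without a block, open points for the others and a black line at the median. The XBP1 targets and PERK arm genes that passed are all to the right of 0, while the ATF6 targets that passed lie on both sides.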

How the data were processed

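Total RNA of 6 cell line libraries was enriched for polyadenylated mRNA. The submitters' processing notes name HISAT2, StringTie and GRCh38 without versions or roles, and the counting program is not given in the sources used here. The authors deposited raw counts per gene, without normalization, and no column was left out. An Ensembl identifier was given for 19974 rows, all found in GENCODE version 29 (GRCh38), which gave coordinates and exon lengths. TMM factors, filterByExpr (about 10 counts in enough libraries, total of at least 15) and robust quasi-likelihood fits were computed with edgeR 4.0.16 (R 4.3.3), without covariates. DESeq2 1.42.0 was an alternative. The log2 CPM values used a prior count of 2. For pairs of genes, exact permutation tests went through all 20 arrangements of the libraries in Python 3.11.15. CREB3L2 minus CREB3L1 was planned and not computed, because CREB3L1 was below the filter, and p-values were adjusted over the 3 pairs left. Standard errors and 95% intervals came from the F statistic. Floors cover counting error only.

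The fits were first tested on simulated counts with known changes. Without the block, 28.4% to 44.8% of 1.5-fold changes and 73.1% to 80.6% of 2-fold changes were recovered per draw. Changes of 1.5-fold were thus often missed, so a gene that did not pass may still have changed. With 200 rows changed per draw, false calls numbered 10 to 15 without the block and 13 to 26 with it. A gene that passed may thus also be a false call. The simulated counts held no replicate effect, and no row with low counts was changed. The 200 rows changed were also fewer than the 1462 that passed in the data, so recovery in the data may differ. Alternatives were other normalizations and filters, DESeq2, Ensembl genes only, the replicate number as a block, and each library left out in turn.

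Deviations from the group means correlated by 0.171, 0.18 and 0.312 between libraries of the same replicate number and by −0.231 to 0.0795 otherwise. With so few replicate numbers such a match can also arise by chance, so whether the libraries are paired was not settled. The main calls and intervals came from fits that ignored the replicate number, and the block was used as an alternative only. Both replicate 3 libraries stood apart on principal component 2 (25.6% of the variance). The genes, lists and tests were chosen with earlier results of these data known. Genes named were the 8 themselves, the 3 of each list with the smallest p and the 3 most like the gene with the smallest p. Neighbours that share exon bases with the 8 genes or with a list gene named are given too, and others are marked in the text.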

Additional observations from a re-analysis of the deposited data

How the results depend on the processing

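Depth limited CREB3L1, and each of the 7 genes tested had at least 315 counts in every library. Over other normalizations, no filter, DESeq2 and Ensembl genes only, 4 genes passed each time and the directions of the 7 held. The formal test of a 1.5-fold change in edgeR left 0 DEGs of the 7 (1 without it, and 4 at an unadjusted p under 0.05 without that threshold), and 32 against 574 of all rows. With the replicate block, 4297 of the 15957 rows passed (26.9%) against 1462 without (9.16%), and DEGs of all rows numbered 1033 with the block. DESeq2 passed 2340 of the 14361 rows to which it gave an adjusted p (16.3%). Of the 7 genes the block changed the call of CREB3L2 alone, at a log2 fold change of 0.23. For the pairs of genes, the block (an exact sign-flip test, which cannot go below p = 0.25) gave −0.78, 0.57 and 0.038 for XBP1 minus ERN1, ATF6 minus ATF6B and XBP1 minus ATF6 and turned no direction.

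The block also passed 4 of the IRE1 partners and 2 of the decay substrates, 2 of the CREB3 targets and 3 of the related factors, where 1, 0, 1 and 1 passed without it. It passed 9 of the ATF6 targets (6 without it) and 5 each of the XBP1 targets and the PERK arm (4 without it). DESeq2 passed 2 of the IRE1 partners, 2 of the CREB3 targets and 8 of the ATF6 targets. The other normalizations and filters were set against the lists after seeing the data. XBP1 targets passing were then 3 with upper quartile scaling and with total counts only, CREB3 targets 2 without the filter and with Ensembl genes only, and IRE1 partners 2 with Ensembl genes only, and no other list count moved. With 1 library left out, the genes passing ranged from 1 to 4 and the DEGs from 1 to 2 of the 7. Log2 fold changes ranged from 1.16 to 1.39 for ERN1, 0.48 to 0.62 for XBP1, 0.46 to 0.56 for ATF6, 0.30 to 0.34 for CREB3, 0.17 to 0.34 for CREB3L2, −0.12 to −0.055 for ATF6B and −0.023 to 0.15 for CREB3L4. The XBP1 minus ATF6 change ranged from −0.077 to 0.16. Passing genes ranged from 0 to 2 for the IRE1 partners, 0 to 1 for the decay substrates, 0 to 3 for the XBP1 targets, 2 to 6 for the ATF6 targets, 0 to 2 for the CREB3 targets, 0 to 1 for the related factors and 3 to 4 for the PERK arm. Why these calls moved was not tested.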
